A study of Mus musculus with 2 samples.

Results

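Slow-twitch muscle fibre transcripts were followed in 100 cell barcodes of a single-cell RNA-seq library from injured mouse muscle. Each of the 100 barcodes carried the transcripts of skeletal muscle fibres and had the highest shares of 6 slow-fibre genes among such barcodes of that library, namely Tnnt1, Tnnc1, Tnni1, Myl3, Myl2 and Myoz2. The ASC library (activated satellite cells) was made from tibialis anterior (TA) muscle taken 1.5 days after cardiotoxin was injected to injure it, in mice of 8 weeks and the genotype Pax7 CreERT2/+ ;Rosa26 mTmG/+. The QSC library (quiescent satellite cells) came from uninjured TA muscle of mice with the same genotype and age. Both groups thus carried the same pair of alleles, a Cre recombinase driven by Pax7, the transcription factor that marks muscle stem cells, and a membrane reporter that Cre switches. Each library was 1 pool of sorted cells labelled as muscle stem cells, and p-values, standard errors and tests between barcodes were therefore not computed.

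The 1650 ASC barcodes held 9059807 UMIs (unique molecular identifiers, 1 for each captured transcript), of which 1468 barcodes passed a minimum of 500 genes and a limit of 10% mitochondrial UMIs. Of these, 939 drew at least 5% of their UMIs from 10 fibre genes, Myf6, Myh4, Acta1, Ckm, Mylpf, Tnnt3, Tnnc2, Myh1, Pvalb and Atp2a1, and formed the fibre class. They were ranked by the share of their UMIs that came from the 6 slow-fibre genes, hereafter the score, and the top 100 (10.6% of the class) were compared with the other 839. The 100 top-ranked barcodes held 267298 UMIs, with a median of 2052.5 per barcode and a range of 921 to 9062, and the others held 2739761, with a median of 2759. The libraries shared 4 barcodes, and 0 of these were among the 100. Pax7 had 0 UMIs in all 100, against the label of muscle stem cells.

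Skeletal muscle fibres are slow or fast. A slow fibre builds its contractile filaments from slow forms of myosin, troponin and tropomyosin, contracts slowly, and takes most of its energy from mitochondrial respiration supplied by the oxygen store myoglobin. Fast fibres use separate genes for the fast forms of the same proteins. Fast fibres with the myosin Myh2 are also oxidative, those with Myh4 are mainly glycolytic, and mouse TA is a largely fast muscle.

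Of the 6 ranking genes, Tnnt1, Tnnc1 and Tnni1 encode the slow forms of troponin T, C and I, the calcium switch of the thin filament. Myl3 and Myl2 encode the essential and regulatory light chains of slow and cardiac myosin, and Myoz2 encodes calsarcin-1, a Z-disc protein that binds calcineurin. The 250 bases before the start site are shown for the 4 of them that have 1 start in the RefSeq table (build GRCm38.p6), since their UMIs chose the barcodes. The windows are chr7:4515976-4516225 on the minus strand for Tnnt1, chr14:31208062-31208311 on the plus strand for Tnnc1, chr9:110763428-110763677 on the plus strand for Myl3 and chr3:123034988-123035237 on the minus strand for Myoz2. The Tnnt1 and Myl3 windows lie inside the spans that GENCODE gives these genes (chr7:4504570-4516382 and chr9:110741861-110769798). The Myoz2 window overlaps the span of its gene in part (chr3:123006206-123035015). The windows read as follows, 5′ to 3′, with matches to 3 muscle motifs in capitals.
Tnnt1: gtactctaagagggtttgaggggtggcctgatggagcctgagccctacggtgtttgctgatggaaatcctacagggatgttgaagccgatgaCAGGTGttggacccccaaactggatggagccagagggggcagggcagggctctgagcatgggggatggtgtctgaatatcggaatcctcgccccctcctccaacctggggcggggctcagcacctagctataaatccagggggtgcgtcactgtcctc
Tnnc1: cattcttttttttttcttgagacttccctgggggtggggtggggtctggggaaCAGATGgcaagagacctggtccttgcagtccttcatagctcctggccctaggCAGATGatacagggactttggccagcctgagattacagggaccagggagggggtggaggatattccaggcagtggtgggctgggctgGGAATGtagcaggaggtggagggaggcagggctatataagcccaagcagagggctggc
Myl3: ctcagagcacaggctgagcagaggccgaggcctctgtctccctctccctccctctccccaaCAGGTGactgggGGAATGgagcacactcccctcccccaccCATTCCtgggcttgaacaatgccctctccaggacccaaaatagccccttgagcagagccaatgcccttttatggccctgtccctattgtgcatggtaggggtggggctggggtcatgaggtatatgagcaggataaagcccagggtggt
Myoz2: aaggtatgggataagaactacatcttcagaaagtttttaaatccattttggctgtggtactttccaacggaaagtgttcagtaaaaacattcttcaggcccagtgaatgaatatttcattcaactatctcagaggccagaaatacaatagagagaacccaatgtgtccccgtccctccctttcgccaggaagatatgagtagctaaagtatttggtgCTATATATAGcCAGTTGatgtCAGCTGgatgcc

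The capitals mark CANNTG, the E-box of the MyoD family, CATTCC on either strand, the MCAT site of TEAD factors, and the consensus site of MEF2. CANNTG was found in all 4 windows, 1 match each for Tnnt1 and Myl3 and 2 each for Tnnc1 and Myoz2. CATTCC was found once for Tnnc1, as its reverse complement 58 to 53 bases before the start, and at 2 places for Myl3. The MEF2 consensus was found in the Myoz2 window alone, 33 to 24 bases before the start. Over all 32851 windows of the same length in the table, 66.2% held CANNTG, 12.6% held CATTCC and 1.69% held the MEF2 consensus, so an E-box is common to most promoters. No binding was measured, and a match is a description of the letters.

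The score fell steeply with rank and did not describe 100 like barcodes. It was 7.07% at rank 1, 2.76% at rank 6, 1.10% at rank 7, 0.254% at rank 25 and 0.104% at rank 50. Around the threshold it was 0.0605%, 0.0597% and 0.0585% at ranks 98 to 100, and 0.0569%, 0.0565% and 0.0563% at ranks 101 to 103, so the last barcodes inside and the first outside were nearly alike. A barcode of the top 100 held a median of 3 UMIs of the 6 genes, with a range of 1 to 391. Of the 100, 26 had 1 such UMI, 23 had 2, 17 had 3 or 4, and 34 had at least 5. All 26 barcodes chosen on 1 UMI had at most 1708 UMIs in total, while the 155 barcodes with 1 such UMI that were left out had at least 1769. At this end of the ranking the depth of a barcode, and not its number of slow UMIs, set which side of the threshold it fell on.

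**Figure D1:**
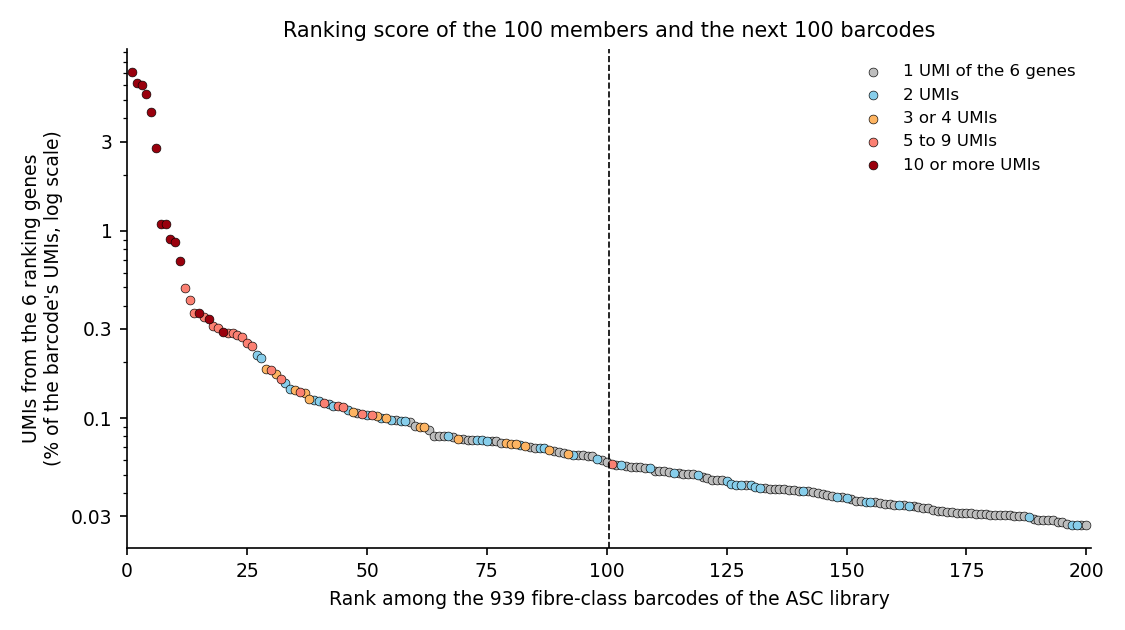
Share of each barcode's UMIs that came from the 6 ranking genes (percent, log scale) against rank for the 100 top-ranked barcodes and the next 100, with colours for the number of such UMIs and a dashed line at the threshold. The score drops from 2.76% at rank 6 to 1.10% at rank 7 and passes the threshold at 0.0585% without a step.

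By the share of slow transcripts, the name slow-fibre-rich described 6 of the 100 barcodes. Of these, ranks 2, 5 and 6 also held genes of embryonic muscle, as given below. Ranks 1 to 6 carried 69.3% of all slow UMIs of the set in 8.08% of its UMIs, and the 6 genes made up 5.06% of their pooled UMIs (95% exact interval 4.77 to 5.37, which, like all intervals here, covers counting error only). The share was 0.525% in ranks 7 to 25, 0.137% in ranks 26 to 50 and 0.0780% in ranks 51 to 100. In the other 839 barcodes it was 0.0082% (0.0072 to 0.0094), and in 81 immune-marker barcodes of the same library, which should lack these genes, it was 0.0087% (0.0062 to 0.0119) at a median of 6079 UMIs per barcode. The 839 others, low by the rule of the ranking, thus lay at the level of the immune barcodes. The bands at ranks 6 and 25 were set after the values were seen and serve as a description.

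In ranks 1 to 6 every ranking gene was present in every barcode. Tnnt1 had 24, 80, 9, 49, 147 and 13 UMIs in ranks 1 to 6 in that order, out of 1019, 4653, 1351, 4227, 9053 and 1306 UMIs in total. Tnnc1 had 13, 60, 21, 40, 61 and 11, and Tnni1 had 6, 66, 15, 18, 80 and 7. All 3 slow troponins were thus held together in single barcodes. Myl3 had 16, 23, 14, 29, 49 and 1 UMIs, Myl2 had 10, 41, 15, 57, 38 and 3, and Myoz2 had 3, 16, 7, 35, 16 and 1. Rank 6 had the slow troponins with few UMIs of the slow light chains.

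Slow genes that took no part in the ranking were also found in these 6 barcodes. Myh7, the slow myosin heavy chain (chr14:54970684-54994626 in GRCm38, minus strand, overlapped on the opposite strand by the non-coding gene Mhrt), had 1, 5, 0, 1, 4 and 0 UMIs in ranks 1 to 6, 0 in the other 94 top-ranked barcodes and 0 in the 839 others. With a floor of 3 UMIs in place of 0 for the others, its level over the whole set was 37.6-fold higher, a value that rests on the floor. Tpm3, the slow tropomyosin gene that also makes forms used outside muscle (chr3:90072649-90100902, plus strand), had 16, 80, 7, 28, 156 and 40 UMIs, or 15133 CPM (UMIs of the gene per 1000000 UMIs of the barcodes), against 32.1 CPM in the others and 597.5 CPM in the immune barcodes. Mb, or myoglobin (chr15:77015487-77050670, minus strand), had 18, 159, 20, 45, 243 and 15 UMIs, or 23138 CPM, against 2474 CPM in the others and 556.1 CPM in the immune barcodes. For Tpm3 the lowest of the 6 barcodes, rank 3, held 7 of 1351 UMIs, so that all 6 held the slow tropomyosin gene with the 3 slow troponins. Myh2, the myosin of fast oxidative fibres, had 0 UMIs in all 6.

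**Figure D2:**
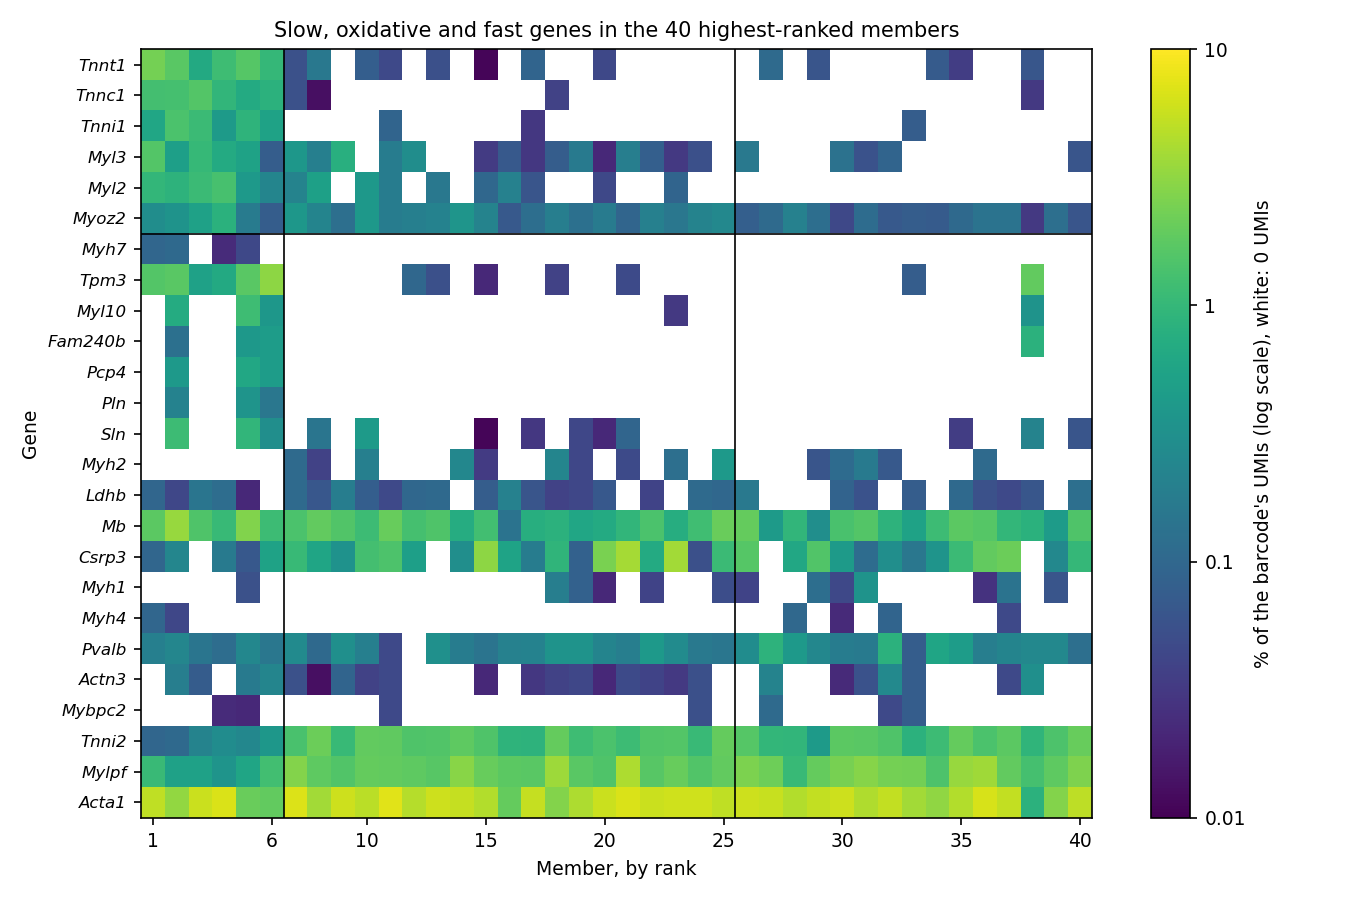
Share of each barcode's UMIs (percent, log colour scale from 0.01 to 10, white for 0 UMIs) for 25 genes in the 40 highest-ranked barcodes, with lines after ranks 6 and 25 and under the 6 ranking genes. The slow troponins fill ranks 1 to 6 and thin out after rank 6, while Myoz2 and Mb go on through the lower ranks, Myh2 begins at rank 7, and rank 38 has Tpm3, Myl10 and Fam240b.

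The fast partners of these proteins were low in ranks 1 to 6. The sum of the 10 fibre genes was 5.07% to 8.71% of their UMIs (median 6.29%), just inside the 5% limit, against a median of 12.9% in the others. Since those 10 genes are mostly fast forms, the limit itself required each barcode to hold some fast transcripts. Tnni2, fast troponin I, which was on neither list of the rule, had 2221 CPM (1638 to 2945) in ranks 1 to 6 and 15229 CPM (15083 to 15376) in the others. The 81 immune barcodes had 2514 CPM (2371 to 2664) of Tnni2, and the intervals of ranks 1 to 6 and of the immune barcodes overlapped. Tpm1, the fast alpha-tropomyosin gene, had 2453 CPM in ranks 1 to 6, 2785 CPM in the immune barcodes and 20196 CPM in the others, and Pvalb, the calcium buffer parvalbumin of fast fibres, had 2036, 1875 and 12839 CPM. These 3 fast genes were at the level of the immune barcodes, whereas Myl1, the fast essential light chain, was above it at 9718 against 2728 CPM, as were Acta1, skeletal actin, at 35957 against 6414 CPM and Actn3, the fast Z-disc actinin, at 1296 against 266.0 CPM. Whether fast transcripts in these barcodes came from the same fibre or from RNA free in the suspension was not tested.

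The balance of slow and fast forms can be read from pairs of genes, as the slow share of the pair's UMIs (UMIs count transcripts from their 3′ ends and are not scaled by length). For troponin T (Tnnt1 against Tnnt3) the slow share was 80.3% in ranks 1 to 6 (76.1 to 84.1), 3.13% in ranks 7 to 25, 0.480% in ranks 26 to 100 and 0.108% in the others. For troponin I (Tnni1 against Tnni2) it was 80.0%, 0.344%, 0.279% and 0.0431%, and for troponin C (Tnnc1 against Tnnc2) it was 63.8%, 0.242%, 0.156% and 0.0584%. The troponins therefore split the set at rank 6. For the regulatory light chain (Myl2 against Mylpf) the slow share was 56.6%, 6.35%, 0.279% and 0.0323%, and for the essential light chain (Myl3 against Myl1) it was 38.6%, 8.49%, 1.14% and 0.0414%. For calsarcin (Myoz2 against Myoz1) it was 90.7%, 65.5%, 25.6% and 1.37%, so that this pair fell off far more slowly with rank. The immune barcodes had slow shares of 0.173% to 6.30% in these 6 pairs. These shares describe the ranking for the slow partner of each pair. In the pairs whose slow or oxidative member took no part in the ranking, Tpm3 made up 86.1% of the UMIs of Tpm3 and Tpm1 in ranks 1 to 6, 0.725% in ranks 7 to 25, 2.19% in ranks 26 to 100 and 0.159% in the others. Of the 70 Tpm3 UMIs in ranks 26 to 100, 60 lay in rank 38, a barcode singled out after its values were seen, and without it the share was 0.322%. Ldhb made up 37.5%, 37.6% and 13.1% of the UMIs of Ldhb and Ldha in the 3 bands, against 0.921% in the others. Tropomyosin followed the troponins, and lactate dehydrogenase, whose B form is the heart and slow muscle form, did not.

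**Figure D3:**
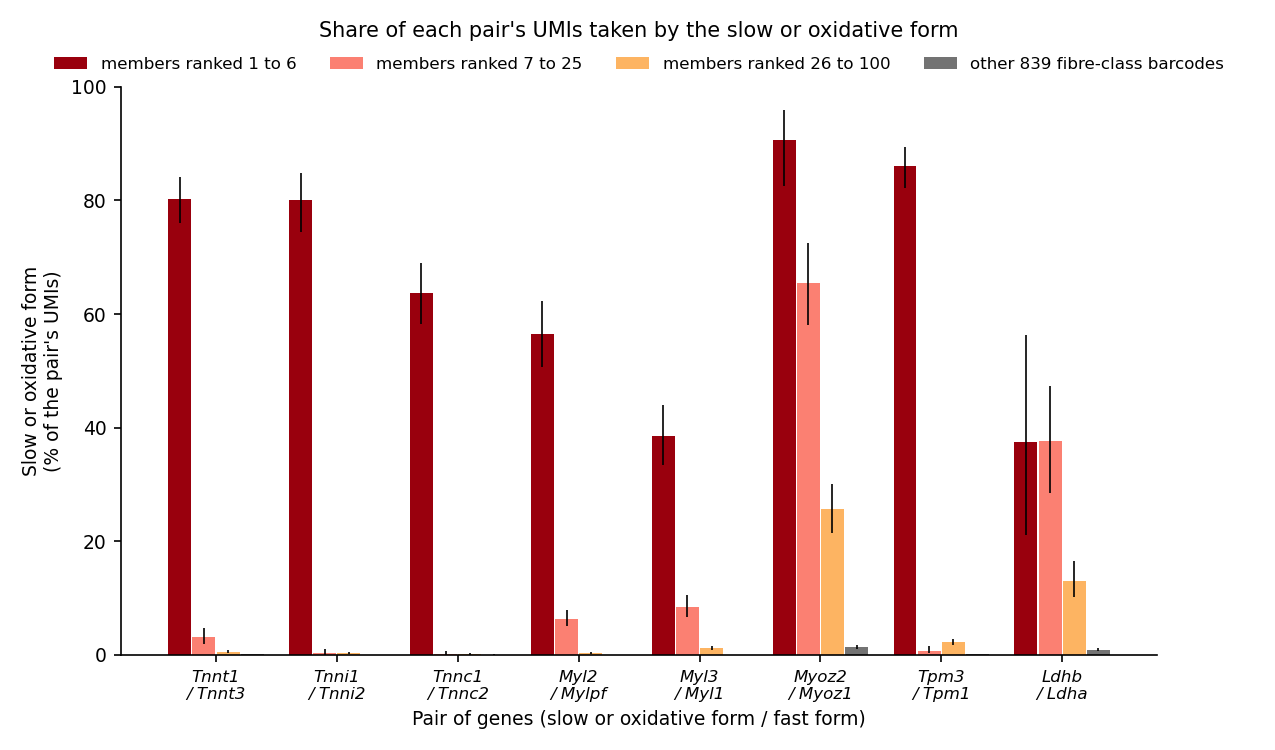
Share of each pair's UMIs (percent) taken by the slow or oxidative gene for 8 pairs, with 95% exact binomial bars for counting error, in ranks 1 to 6, 7 to 25 and 26 to 100 and in the other 839 barcodes. Troponins and tropomyosin are mostly slow in ranks 1 to 6 alone (63.8% to 86.1%), while Myoz2 and Ldhb remain at 65.5% and 37.6% in ranks 7 to 25.

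Ranks 1 to 6 were not alike among themselves. Ranks 2, 5 and 6 carried a further group of genes that ranks 1, 3 and 4 lacked. Myl10, a regulatory light chain gene of myosin, had 0, 33, 0, 0, 105 and 5 UMIs in ranks 1 to 6. Pcp4, a small calmodulin-binding protein, had 0, 19, 0, 0, 57 and 6, and Pln, or phospholamban, the inhibitor of the calcium pump of slow and cardiac muscle, had 0, 10, 0, 0, 32 and 2. Sln, or sarcolipin, a related pump inhibitor, had 0, 53, 0, 0, 86 and 4, and Myl4, the embryonic and atrial essential light chain, had 0, 23, 0, 0, 36 and 9. Rank 1 had 1019 UMIs and rank 3 had 1351, close to the 1306 of rank 6, so total counts alone did not separate the 2 groups of 3. Ranks 1 and 3 also had mitochondrial shares of 1.77% and 1.70%, above the 1% at which the study removed cells, against 0.0710% to 0.459% in ranks 2, 4, 5 and 6. Rank 38, with a score of 0.126%, had the further group in part, at 60 UMIs of Tpm3, 27 of Fam240b, 11 of Myl10, 7 of Sln and 6 of Myl4 with 0 of Pcp4 and Pln out of 3174 UMIs.

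Ranks 7 to 25 had another make-up, with the slow light chains and Myoz2 but few slow troponin UMIs. Myoz2 was present in 19 of 19 barcodes (2049 CPM), Myl3 in 15 (1307 CPM) and Myl2 in 10 (1378 CPM). Tnnt1 was present in 8 (406.3 CPM), Tnnc1 in 3 and Tnni1 in 2 (53.0 CPM each). The immune barcodes had 4.4 to 21.8 CPM of these 6 genes, so the 3 UMIs each of Tnnc1 and Tnni1 are few to read a level from. Myh7 had 0 UMIs in the 19 barcodes, and the fast troponin I gene Tnni2 was at 15369 CPM, close to the 15229 CPM of the others.

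Of the genes outside the rule, Myh2 (chr11:67171027-67197517, plus strand) was present in 10 of these 19 barcodes with 1 to 8 UMIs each, at 653.6 CPM (460.2 to 900.9). In the others it was present in 17 of 839, at 8.03 CPM, and in 1 of 81 immune barcodes. After each barcode was thinned to 1200 UMIs, 38.9% of 18 barcodes had a Myh2 UMI (17.3 to 64.3) and 1.18% of 762 others did (0.541 to 2.23). Myh4, the myosin of fast glycolytic fibres, which was on the fibre list, had 0 UMIs in the 19 barcodes, while 569 of the 839 others had at least 1 and their level was 933.3 CPM. With a floor of 3 UMIs in place of 0 for the 19 barcodes, the log2 ratio to the others was −4.14, a value that rests on the floor. Myh2 was thus detected and Myh4 was not, and Myh1, the myosin of intermediate fast fibres, was at 176.7 CPM (84.7 to 324.9) against 286.5 CPM.

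Mb ranged from 0.139% to 2.08% of UMIs in ranks 7 to 25, with a median of 1.20%, against a median of 0.111% in the others (0 to 1.96%). Pvalb ranged from 0 to 0.406%, with a median of 0.208% against 1.16% in the others. In ranks 1 to 6 the medians were 1.62% for Mb and 0.175% for Pvalb. Over the summed UMIs Mb was at 12207 CPM (11314 to 13152) in ranks 7 to 25, below the 23138 CPM (21155 to 25258) of ranks 1 to 6 and above the 2474 CPM of the others. Csrp3, muscle LIM protein, a stretch-responsive Z-disc protein, differed between the bands, with medians of 0.690% in ranks 7 to 25, 0.132% in ranks 1 to 6 and 0.0767% in the others. Within ranks 7 to 25 it ran from 0 to 3.99%. Actn3 was at 300.3 CPM and Mybpc2, fast myosin-binding protein C, at 35.3 CPM, against 2311 and 646.4 CPM in the others and 266.0 and 61.1 CPM in the immune barcodes. Idh2, a mitochondrial isocitrate dehydrogenase, had a log2 ratio of 2.99 to the others (2.29 to 3.63), and Ldhb had 4.80 (4.21 to 5.38).

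In ranks 26 to 100 the slow troponins were seldom seen. Tnnt1 was present in 10 of 75 barcodes, and Tnnc1 and Tnni1 in 7 each, while Myoz2 was present in 52. After thinning to 1200 UMIs, 44.1% of 68 barcodes had a Myoz2 UMI (32.1 to 56.7), against 1.31% of 762 others and 2.56% of 78 immune barcodes. As a ranking gene, Myoz2 helped to choose these barcodes, so its contrast with the others describes the rule. Tnnc1, at 4.41% (0.919 to 12.4), was near the 1.28% of the immune barcodes (0.0325 to 6.94), with overlapping intervals. The median share of Mb was 0.565% and that of Pvalb 0.475%, between those of ranks 7 to 25 and of the others. Myh2 was present in 14 of the 75 barcodes and Myh4 in 28.

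Each ranking gene was also read in barcodes chosen by the other 5 genes, so that its own UMIs did not place them. All 6 were higher in those top 100 barcodes than in the rest, with log2 ratios of 6.27 for Tnnt1, 5.56 for Tnnc1, 6.26 for Tnni1, 5.77 for Myl3, 6.06 for Myl2 and 3.73 for Myoz2. Without ranks 1 to 6 the log2 ratios were 4.65 for Myl3 (4.11 to 5.21), 4.56 for Myl2 (3.97 to 5.18), 3.20 for Myoz2 (2.86 to 3.53) and 2.80 for Tnnt1 (2.08 to 3.49). Those of Tnnc1 (0.29, −1.40 to 1.61) and Tnni1 (0.77, −1.22 to 2.30) rested on 5 and 4 UMIs, and a difference was not detectable at this depth. Across the 100 barcodes, which share 1 library, the Spearman correlation of the score with the share of Mb was 0.47 and with that of Pvalb −0.53 (0.41 and −0.49 without ranks 1 to 6). With total UMIs it was 0.10. When the UMIs of each barcode were split at random and the top 100 were chosen on one part, 48 of them had 0 UMIs of the 6 genes in the other part. Ranks 1 to 6 and 7 to 25 were all chosen again. So were 21 of the 25 barcodes of ranks 26 to 50 and 25 of the 50 barcodes of ranks 51 to 100. The UMIs used to choose were among those that made the full ranking, so these counts are not a separate check of membership.

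UMIs were then summed over the 100 barcodes and over the 839 others, and 2071 genes with a mean of the 2 levels of at least 50 CPM were compared. Of these, 54 genes (2.61%) were at least 2-fold higher in the top 100 and 49 (2.37%) at least 2-fold lower, or 103 (4.97%) either way, with a median log2 ratio of −0.03 over all 2071. Without ranks 1 to 6, 44 of 2060 genes were at least 2-fold higher (2.14%) and 49 lower (2.38%), or 93 (4.51%) either way. Outside the rule lists, the 12 highest were Fam240b, Gm14216, Pcp4, Myl10, Pln, Tpm3, Myh2, Myl6b, Myl4, Ldhb, Sln and Tnnt2. These are largely genes of slow, embryonic or cardiac muscle, with no role stated here for Fam240b and Gm14216.

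Most of the 12 drew on ranks 1 to 6. All UMIs of Pcp4 (82, against 9 in the others) and Pln (44 against 7) lay there, and 96.9% of Gm14216 (32 against 3), 90.5% of Myl10 (158 against 23), 81.1% of Tpm3 (403 against 88) and 78.2% of Myl4 (87 against 54). Pcp4 lies inside the span of Igsf5 on the same strand and Pln is overlapped on the opposite strand by Cep85l, and strand handling in the count was not stated. Tnnt2, the cardiac and embryonic troponin T, had 27 UMIs against 37 and a log2 ratio of 2.90, which without ranks 1 to 6 was 0.85 (−0.68 to 2.11) and with a fibre limit of 10% was −0.87. Fam240b (chr13:64481246-64497792, minus strand) had 76 UMIs against 4, of which 48 lay in ranks 2, 5 and 6 and 27 in rank 38. Sln had 194 against 136, with a log2 ratio of 3.87 and of 2.06 without ranks 1 to 6, and Myl6b, a slow essential light chain, had 60 against 35, with 4.14 and 2.26.

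Myh2 and Ldhb stood apart from these, as they did not depend on the 6 highest barcodes. Myh2 had 75 UMIs in 24 of the 100 barcodes, with at most 8 in any, and 22 UMIs in 17 of the 839 others. Its log2 ratio was 5.13 (4.43 to 5.88), and 5.25 without ranks 1 to 6. Ldhb (chr6:142490249-142507957, minus strand) had 113 UMIs in 49 barcodes and 71 UMIs in 60 others, with log2 ratios of 4.03 (3.59 to 4.48) and 3.99. Mb had 2806 UMIs in 95 barcodes and 6779 in 734 others, a level 4.24-fold higher (log2 ratio 2.08, 2.02 to 2.15). Csrp3 had a log2 ratio of 0.99 (0.92 to 1.06), or 1.98-fold.

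**Figure D4:**
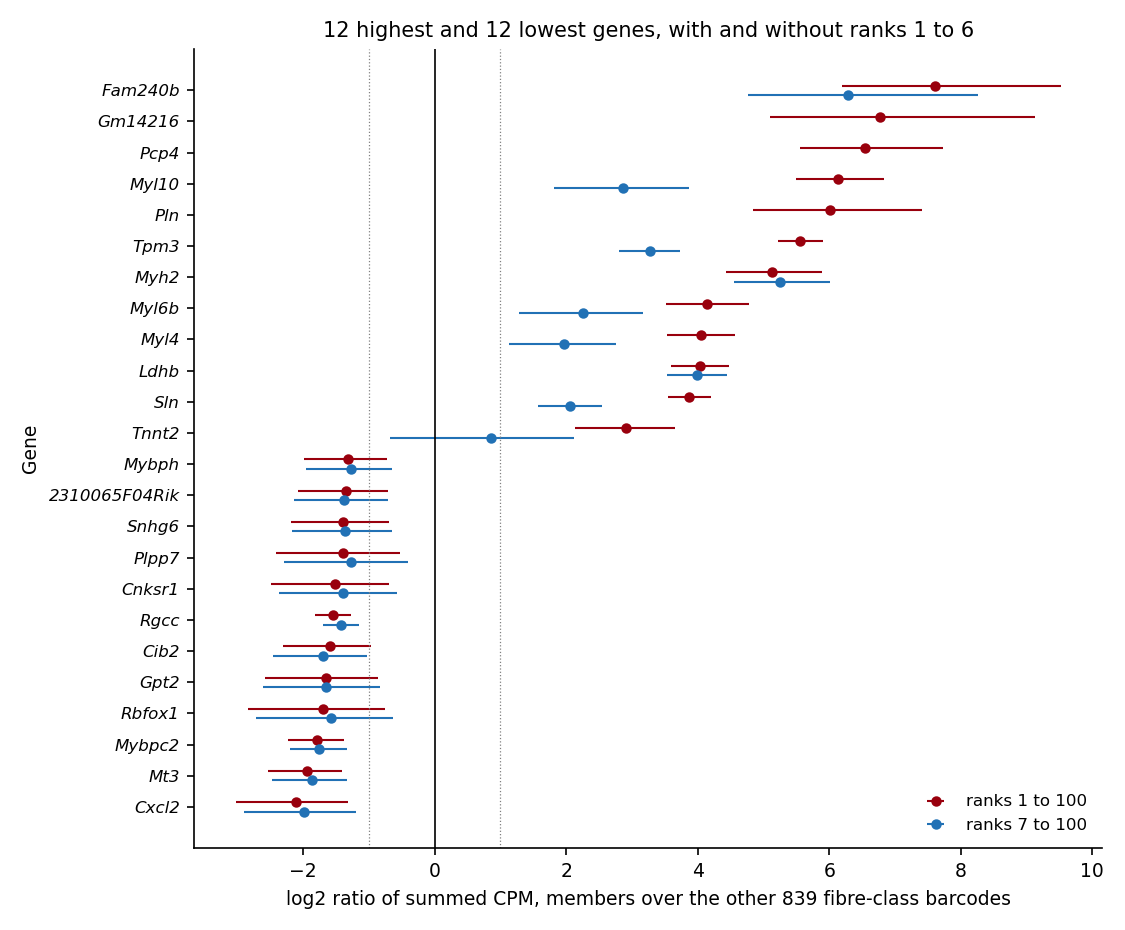
Log2 ratio of summed CPM, the 100 top-ranked barcodes over the other 839, for the 12 highest and 12 lowest genes outside the rule lists (red), and the same without ranks 1 to 6 (blue), with 95% exact intervals for counting error and dotted lines at 2-fold. Myh2 and Ldhb keep their ratios without ranks 1 to 6 (5.25 and 3.99), Tnnt2 goes to 0.85, and Gm14216, Pcp4 and Pln have no blue point since 1, 0 and 0 of their UMIs remain.

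The 12 lowest genes were Cxcl2, Mt3, Mybpc2, Rbfox1, Gpt2, Cib2, Rgcc, Cnksr1, Snhg6, Plpp7, 2310065F04Rik and Mybph, with log2 ratios from −2.11 to −1.32. Mybpc2 had 50 UMIs against 1771 in the others (−1.79, −2.22 to −1.38). Mt3, a metallothionein, had 29 against 1143 (−1.94, −2.53 to −1.41), and Rgcc, a regulator of the cell cycle, had 120 against 3573 (−1.54, −1.81 to −1.28). Rgcc had 0 UMIs in ranks 1 to 6 and 4 in ranks 7 to 25. Cxcl2, a neutrophil chemokine, had 13 UMIs in 12 barcodes against 575 UMIs in 120 of the 839 others (−2.11, −3.03 to −1.32). The 12 low ratios lay between −1.99 and −1.27 without ranks 1 to 6, but that of Cxcl2 was 0.56 when the top 200 barcodes were taken in place of the top 100. Gpt2 and Rbfox1, an alanine aminotransferase and a splicing factor, were at −1.65 and −1.70.

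Of the other myosin heavy chains, Myh1 had a log2 ratio of 0.13 (−0.21 to 0.46), and Myh4 had 87 UMIs against 2557 (−1.52, −1.85 to −1.21), in 30 barcodes and 569 others. Myh3, the embryonic form, had 9 UMIs in ranks 2 and 5 and 0 in the others, and Myh8, the neonatal form, had 0 UMIs against 2. Pvalb, also on the fibre list, was at −1.41 (−1.50 to −1.33).

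Gene lists by function were described by their counts and medians, beside 2.61% higher, 2.37% lower, 970 above 0, 1101 below 0 and a median log2 ratio of −0.03 over all 2071 genes. Against the same others, 23% of 2048 genes were at least 2-fold higher and 13.2% lower in ranks 1 to 6 (median 0.17), and 8.78% of 2016 were higher and 12% lower in ranks 7 to 25 (median −0.05). The level for comparison was applied within each band, so a gene could be compared in a band only because it was high there. Of 10 further slow-fibre genes, 5 reached the level for comparison (Tpm3, Myl6b, Mybpc1, Pln and Mb), and 4 of these were at least 2-fold higher, with Mybpc1, slow myosin-binding protein C, at 0.48. Myh7, Myh7b, Atp2a2, Casq2 and Myom3 were below that level, with 11, 0, 1, 1 and 4 UMIs in the top 100. Of 15 further fast-fibre genes, 11 were compared, of which Myh2 was at least 2-fold higher and Mybpc2, Actn3 (−1.30) and Smtnl2 (−1.05) were at least 2-fold lower, with a median of −0.50 and 10 of 11 below 0. Tnni2 was at −0.11. The genes of slow fibres could reach the level through ranks 1 to 6 alone, and without those barcodes 3 of the 10 were compared.

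Energy metabolism differed in the direction of respiration, with small ratios. All 48 nuclear genes of the respiratory chain and ATP synthase were compared, of which 47 lay above 0 and Ndufs1 below it (−0.40), with a median of 0.40 and 0 past 2-fold. The highest was Ndufb3, a complex I subunit, at 0.86 (0.57 to 1.13). All 8 of the 13 genes of the mitochondrial genome that were compared lay above 0, with a median of 0.47. Per barcode, the mitochondrial share had a median of 0.202% in the top 100 (0 to 8.28%) and 0.172% in the others (0 to 6.91%). This share is also the measure of the limit on barcodes. The part of barcodes with high shares in the summed ratios was not tested. Of 25 genes of fatty acid use, 14 were compared and all 14 lay above 0 (median 0.56), and Fabp3, the fatty acid carrier of heart and slow muscle, at 1.26 (1.05 to 1.47) and Hadha, of mitochondrial beta-oxidation, at 1.02 (0.20 to 1.76) were past 2-fold. Of 23 genes of the citrate cycle and its feeders, 22 were compared and 19 lay above 0 (median 0.31), with Ldhb and Idh2 (1.96, 1.47 to 2.42) past 2-fold. Of 23 genes of glycolysis, 22 had a matching feature and 16 were compared, of which 15 lay below 0 (median −0.37) and Gpd1, glycerol-3-phosphate dehydrogenase, was past 2-fold at −1.09. Of 5 compared genes of the mitochondrial creatine shuttle, 4 lay above 0 (median 0.29). By band, the nuclear respiratory median was 0.10 in ranks 1 to 6, under the 0.17 of all genes there, and 0.43 in ranks 7 to 25, above the −0.05 of all genes there, that of fatty acid use −0.16 and 0.79, and that of glycolysis −0.68 and −0.92. The median of the mitochondrial genome was 0.21 in ranks 1 to 6, close to that of all genes, and −0.26 in ranks 7 to 25, where 6 of 8 genes lay below 0.

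**Figure D5:**
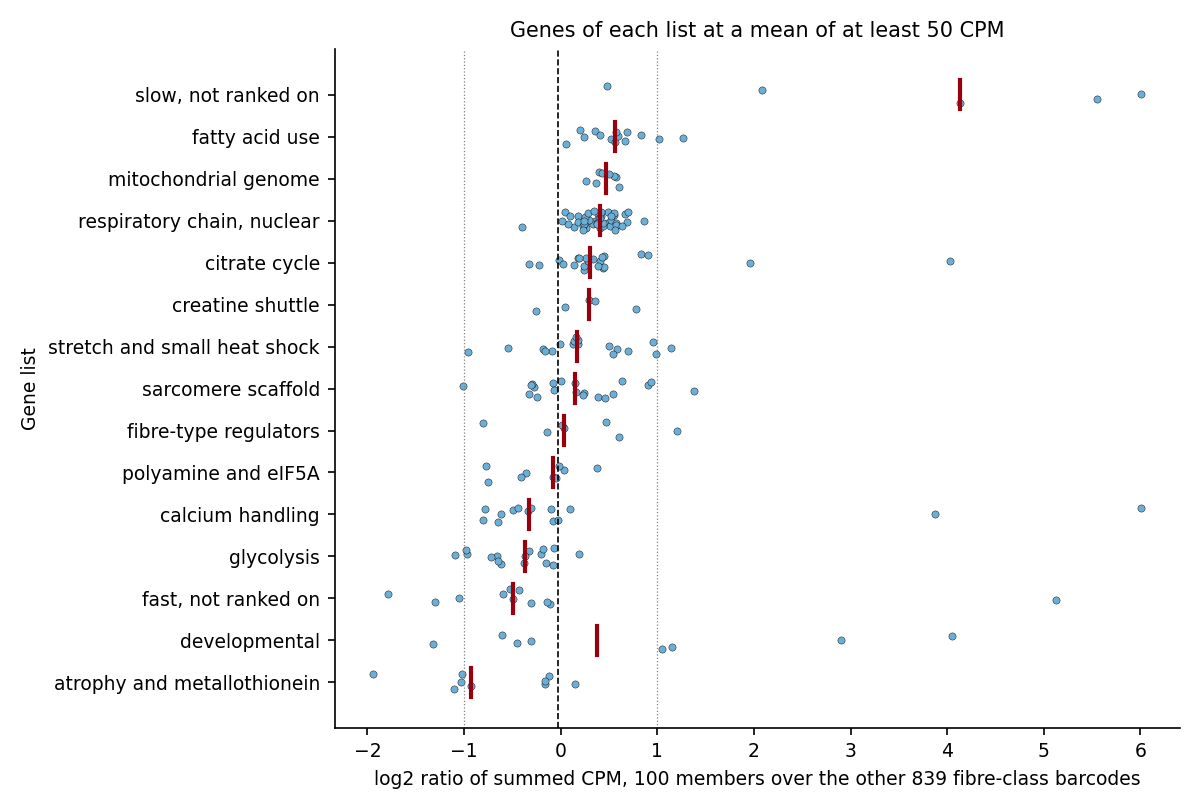
Log2 ratio of summed CPM, the 100 top-ranked barcodes over the other 839, for each gene (blue point) of 15 lists at a mean of at least 50 CPM, with the list median (red bar), the median of all 2071 genes (dashed, −0.03) and 2-fold (dotted). The respiratory chain (median 0.40) and fatty acid use (0.56) lie almost wholly to the right of the dashed line, and glycolysis (−0.37) and atrophy genes (−0.93) to the left.

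Genes of muscle atrophy and metallothioneins lay mostly below 0. Of 18, 9 were compared and 8 lay below 0, with a median of −0.93. By band, 5 of 9 were at least 2-fold lower and 0 higher in ranks 7 to 25 (median −1.29), while in ranks 1 to 6, 5 of 11 were lower and 3 higher (median −0.16). Over all genes compared, 8.78% were higher and 12% lower in ranks 7 to 25. In ranks 1 to 6 those shares were 23% and 13.2%. The list had 11 genes compared in ranks 1 to 6 and 9 over the whole set, since the level for comparison was applied within each band. The metallothioneins Mt1 (−1.02) and Mt2 (−1.10), Mt3, and Trim63, the ubiquitin ligase MuRF1 of muscle wasting (−1.03, but 0.076 when barcodes were ranked by the 3 slow troponins alone), were past 2-fold, and Fbxo32, the other wasting ligase, was below the level for comparison with 4 UMIs against 211. Of 18 genes of stretch response and small heat shock proteins, all were compared and 12 lay above 0 (median 0.17), with Ankrd2, a stretch-responsive ankyrin repeat protein, at 1.14 (1.04 to 1.25), Fhl1 at 0.95 and Hspb8 at −0.95. The bands lay apart in this list. In ranks 7 to 25, 11 of 18 genes were at least 2-fold higher and 0 lower (median 1.11), with Csrp3 at 1.95 (1.85 to 2.06), Ankrd2 at 1.92 (1.75 to 2.09) and Hspb1, a small heat shock protein, at 1.46 (1.37 to 1.56). These sums leaned on few barcodes. Of the 827 Csrp3 UMIs of the band, 282, 111, 84 and 122 lay in ranks 15, 20, 21 and 23. The median share of Csrp3 per barcode was 0.690% in the band and 0.0767% in the others, where it reached 4.50%. In ranks 1 to 6, 1 of 17 was at least 2-fold higher and 6 were lower (median −0.21), with Csrp3 at −1.35 (−1.90 to −0.85) and Hspb1 at −1.55 (−2.01 to −1.13). Of 26 sarcomere scaffold genes, 20 were compared (median 0.15), with Lmod2, an actin-filament nucleator, at 1.38 and Pdlim3 at −1.01.

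Of 18 developmental genes, 8 were compared, of which Myl4 (4.05), Tnnt2, H19 (1.15) and Actc1, cardiac actin (1.05), were past 2-fold higher and Mybph (−1.32) past 2-fold lower. Without ranks 1 to 6, 6 were compared, H19 alone was past 2-fold higher and the median went from 0.37 to −0.49. Myog and Myod1, the myogenic regulators, were at −0.45 (−1.07 to 0.11) and −0.61 (−1.20 to −0.08) over the whole set. In ranks 1 to 6, 9 genes of the list were compared, 6 at least 2-fold higher and 1 lower (median 1.43). Over all genes compared there, 23% were higher and 13.2% lower. By rank, Tnnt2 had 0, 7, 0, 0, 11 and 3 UMIs and Myog had 0, 3, 0, 0, 5 and 0. Of 21 genes of calcium handling, 14 were compared and 11 lay below 0 (median −0.32), with Pln and Sln the exceptions past 2-fold. Of 26 regulators of fibre type, 7 were compared (median 0.04), and Rcan2, a calcineurin regulator, was past 2-fold at 1.20 (0.50 to 1.85). Ppargc1a, the coactivator of mitochondrial genes, was too low to compare, with 6 UMIs against 28.

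The genes of the polyamine and eIF5A pathway, the subject of the study, differed little over the whole set. Of 15, 9 were compared, 0 were past 2-fold (4.97% of all genes compared) and the median was −0.08. The summed levels of the bands lay apart. In ranks 1 to 6 the summed log2 ratio was 0.36 (0.07 to 0.64), from 104 UMIs in 6 barcodes. There 1 of 8 genes was at least 2-fold higher, against 23% of all genes compared. In ranks 7 to 25 the summed log2 ratio was −0.39 (−0.62 to −0.16), with 2 of 9 at least 2-fold lower, against 12% of all genes compared. The counts of genes past 2-fold are too few to set apart from these shares. The values that follow are for the whole set. Odc1, the rate-limiting enzyme of polyamine synthesis, had 51 UMIs against 896 (−0.78, −1.21 to −0.37), Amd1, S-adenosylmethionine decarboxylase, was at −0.76 (−1.48 to −0.11), and Eif5a was at −0.41 (−0.66 to −0.18). Oaz2, an antizyme, was at 0.37 (−0.02 to 0.75). Dhps, the first enzyme of hypusine formation on eIF5A, was below the level for comparison with 8 UMIs against 66, and Dohh, the second, was at −0.05 (−0.73 to 0.57).

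Markers of other cell types were sparse. In the top 100, the summed share of 10 satellite cell markers was 0 to 0.109%, with Pax7, Cd34 and Calcr at 0, that of 10 macrophage markers 0 to 0.115%, with C1qb, C1qc and Ccr2 at 0, and that of 6 neutrophil markers 0 to 0.227%, with Retnlg, Csf3r and Cxcr2 at 0. The pooled satellite cell sum was 108.5 CPM in the top 100 and 108.4 CPM in the others. That of macrophages was 232.0 and 255.5 CPM, and that of neutrophils 48.6 and 93.8 CPM. Low satellite cell and macrophage sums were thus common to both groups. The 10 cycling markers reached 0.179%, the 7 fibroblast markers 0.0974%, the 7 endothelial markers 0.0695%, the 6 Schwann cell markers 0.0223%, the 5 erythroid markers 0.124% and the 6 tenocyte markers 0.109%, and the median of each of these lists was 0. In ranks 1 to 6, all 7 fibroblast and all 6 Schwann cell markers had 0 UMIs, and 7 of 10 macrophage markers did. The low Cxcl2 of the top 100 ran with a neutrophil share of at most 0.227%, against up to 4.08% in the others, and the part of such barcodes in the Cxcl2 ratio was not tested.

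Since TA is skeletal muscle, markers restricted to the heart or to smooth muscle were read beside the slow and cardiac genes. Of 6 cardiac markers, Nppa, Nppb, Myh6, Tnni3 and Myl7 had 0 UMIs in all 100 barcodes and only Myl4 was found, at up to 0.689%. Of 6 smooth muscle and mural markers, Myh11, Tagln, Rgs5, Pdgfrb and Kcnj8 had 0 UMIs, and only Acta2 was found, at up to 0.311%. Acta2 had 1, 5, 1, 0, 25 and 1 UMIs in ranks 1 to 6, 65 in all against 139 in the others, with a log2 ratio of 2.26 (1.81 to 2.70). The defining markers of both cell types were thus absent at this depth.

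In the uninjured QSC library, 104 of 516 barcodes that passed the same limits fell in the fibre class. They held 90 UMIs of the 6 ranking genes out of 214486, or 0.0420% (0.0337 to 0.0516), of which 48 were Myl3, 40 Myoz2, 1 Tnnt1 and 1 Tnnc1. The highest barcode had 35, no score reached 1%, and 19 of the 104 (18.3%) were at or above the ASC score of rank 100. Only 22 of the 104 had any UMI of the 6 genes. The QSC fibre class was shallower, with a median of 1635 UMIs per barcode against 2672 in the ASC fibre class. At lower depth 1 UMI gives a higher score, so the 18.3% is not comparable with the ASC share at like depth. Myh2 had 36 UMIs in 12 of the 104 barcodes, Mb was at 5823 CPM (5505 to 6155), Ldhb at 200.5 CPM, Tpm3 had 1 UMI and Myh7, Tnni1, Myl2, Pln and Myl10 had 0. Csrp3 was at 526.8 CPM (434.2 to 633.4), against 14610 CPM in ranks 7 to 25 and 3769 CPM in the other 839 ASC barcodes. In those 839 barcodes Mb was at 2474 CPM and Ldhb at 25.9 CPM, both below the QSC fibre class. The QSC fibre class thus held part of the make-up of ranks 7 to 25, with Myl3, Myoz2 and Myh2 but without Myl2, and 2 slow troponin UMIs in all. With 1 library per condition, injury, library and the mice pooled in each cannot be told apart.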

How the data were processed

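Each library was prepared by the authors with droplet 3′ chemistry and sequenced as 1 pool per condition. The deposited values are UMI counts per gene and barcode, made by the authors with Cell Ranger against mm10 (version 7.1.0 in the submitters' processing notes, 6.0.2 in the file headers), and Seurat 4.1.0 and R 4.1.2 are named for later steps. Strand handling was not given in the sources used here. The study removed cells above 1% mitochondrial UMIs, whereas a limit of 10% was used here. Doublets were not removed.

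UMIs were summed per group of barcodes with Python 3.11.15, numpy 2.4.6, scipy 1.17.1 and pandas 2.3.3, and plotted with matplotlib 3.10.9. CPM has an exact Poisson interval and a log2 ratio an exact conditional binomial interval, both at 95%. The ratio interval was tried on counts simulated with counting error alone, which cannot show how it holds under differences between barcodes. Since groups held 1 library, a gene was called by its ratio (at least 2-fold, at a mean of at least 50 CPM). Against 0 UMIs a floor of 3 over the group was used. Immune barcodes drew at least 1% of UMIs from macrophage and neutrophil markers and were outside the fibre class. Named genes were the 12 highest and 12 lowest ratios outside the rule lists at 100 CPM or more in the higher group, the ranking genes, 6 myosins, and the most abundant genes of 15 lists. Positions are from GENCODE M21 (GRCm38), where 32158 of 32285 features matched, and promoter sequences from RefSeq. The barcodes, the lists and the 12 marker lists were chosen with earlier results of these data known. Myh7, Tpm3, Mb and the other named genes of the same barcodes are not independent evidence of their state. Alternatives were the size of the set, the limits, depth, the ranking genes and the filter on low levels.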

Additional observations from a re-analysis of the deposited data

Results flagged for a closer look

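A signal was found in barcodes that entered neither group of the main comparison. Under the 5% limit on fibre genes, 8 of the kept ASC barcodes had scores of at least 1%, from 1.99% to 5.10%, with 2.15% to 4.18% of UMIs from the fibre genes, and the next score there was 0.485%. The uninjured QSC library had 0 such barcodes under the limit and 0 in its fibre class. All 8 held Tnnt1, Tnnc1, Tnni1 and Myl3, along with Tpm3 (17 to 136 UMIs) and Myl10 (4 to 71 UMIs), 6 held Myh7, and Myh2 was at 0. Pcp4 was found in 7 and Sln in 7. Myl2 was absent from 1 of them and Myoz2 from 2. They had 1390 to 10847 UMIs each, and 7 of them held Myl10, Pcp4, Sln and Myl4 together, as ranks 2, 5 and 6 of the fibre class did. Among the 100 top-ranked barcodes, 8 had scores of at least 1%, with 2.76% or more in ranks 1 to 6 and 1.10% and 1.09% in ranks 7 and 8.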

How the results depend on the processing

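The main values were 54 genes higher, 49 lower, a slow share of 0.591% and a summed log2 ratio of 6.17 for the 6 ranking genes. With the top 50 barcodes they were 91, 124, 1.01% and 6.50, and with the top 200, 18 higher, 3 lower and 0.283%, with Mybph at 0.13 and Cxcl2 at 0.56 turned to the higher side. A fibre limit of 10%, which removes ranks 1 to 6 by its construction, gave 29, 31, 0.175% and 4.64, with Tnnt2 at −0.87 and Cxcl2 at 0.17 turned. Ranking by Tnnt1, Tnnc1 and Tnni1 gave 28, 6, 0.400% and 4.73, with Cnksr1 at 0.16 and Trim63 at 0.076 turned. Thinning to 1200 UMIs gave 83, 100, 0.462% and 5.86. A minimum of 1200 UMIs gave 0.518%, a mitochondrial limit of 1% gave 32 lower and 0.502%, a denominator without the 16 genes of the rule gave 0.675%, and a mean over barcodes gave 0.484%. Without the 5 barcodes of most UMIs the share was 0.461% and the ratio 5.81. Filters at a mean of 20 and 200 CPM gave 125 and 9 higher and 195 and 10 lower, as more or fewer genes were compared. Choosing barcodes on a random part of the UMIs and reading them in the rest gave a ratio of 5.52. Of the alternatives chosen after seeing the data, ranks 7 to 100 gave 0.197% and 4.59, the 34 barcodes with at least 5 slow UMIs gave 95, 167, 1.19% and 7.18, and a fibre limit of 2% gave 180 lower, 1.10% and 6.94. Under the limit of 2%, the 8 high-scoring barcodes flagged above joined the set. Apart from the effects of construction named here, the cause was not tested. Of 1416 values of 96 named genes under the alternatives, 986 moved by less than their counting interval, 424 moved further and 6 turned direction. A turn was counted only for genes past 2-fold in the main comparison. Changes of sign inside 2-fold are among the 986 and the 424.

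No paired analysis was possible because each group was 1 library. A barcode of the top 100 held a median of 3 slow UMIs, and at the lower end of the ranking, where 26 barcodes were chosen on 1 UMI, depth set membership. Ratios of genes found in few barcodes describe those barcodes.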
